A study of Mus musculus with 5 samples.

Results

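The tricarboxylic acid (TCA) cycle enzymes examined here were the products of 9 nuclear genes, Cs, Idh2, Idh3a, Ogdh, Suclg1, Sdha, Sdhb, Fh1 and Mdh2, out of 23771 genes in a table of gene expression in lung metastatic cancer cells. They were chosen by name for their place in the cycle, by a rule that used no measured value, though with earlier results of these data known. The cells were 4T1 cells, a mouse mammary carcinoma line, carrying the Thy1 variant CD90.1 as a reporter and growing in the lungs of female BALB/c mice. Before the cancer cells arrived, mice had been given tumor-secreted factors (TSF, medium conditioned by pieces of 4T1 tumor) or control medium (CM) intravenously, 3 times a week for 3 weeks. All mice then received 25000 cancer cells intravenously, and lungs were taken at day 16, when the mice were 11 weeks old, for single-cell RNA sequencing. One library was made per condition, each from a pool of 3 mice, so there was 1 sample per group, no replicate and no test between conditions.

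The TCA cycle oxidises acetyl groups to carbon dioxide in the mitochondrial matrix and passes the electrons, as NADH and through succinate dehydrogenase, to the respiratory chain. It also supplies citrate, 2-oxoglutarate and oxaloacetate for the synthesis of lipids and amino acids, and pyruvate, glutamine and other fuels refill it. Tumors that colonise the lung, an oxygen-rich organ, are often studied for their reliance on this route and on oxidative phosphorylation.

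Mean mRNA levels in the cancer cells differed by less than 1.5-fold between the TSF and CM libraries for 7 of the 9 enzymes. No interval of these ratios could be given. TSF levels were lower for 7 of the 9, and for 60.1% of all genes that could be compared. Of the 7, Cs and Sdhb changed sign on centring, and the largest ratios were those of Idh2, Sdha and Fh1. Idh2, the mitochondrial NADP-dependent isocitrate dehydrogenase, was 1.60-fold lower in TSF and Sdha, the flavoprotein of succinate dehydrogenase, was 1.52-fold lower. Fh1, fumarase, was 1.33-fold lower. Of the 2 that were higher in TSF, Mdh2, the mitochondrial malate dehydrogenase, differed more, by 1.32-fold. Of the 9, 2 were at least 1.5-fold lower in TSF and 0 at least 1.5-fold higher, where 29.9% of the 10121 genes that could be compared were lower by that much and 15.4% were higher. The median log2 ratio of TSF over CM was -0.26 for the 9 enzymes and -0.20 for all 10121 genes. No enzyme was detected in a share of cells whose 95% interval lay apart between the libraries. By that rule 1.51% of the 10201 genes seen in at least 10% of cells of either library were lower in TSF and 1.14% were higher.

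Levels are mean CP10k, the UMIs (unique molecular identifiers, one per captured mRNA molecule) of a gene per 10000 UMIs of a cell, averaged over all cancer cells of a library. The TSF library held 139 cancer cells among 5197 cells and the CM library 29 among 3835. The libraries shared 31 cell barcodes, of which 0 were shared by cancer cells. Median depth per cancer cell was 26615 UMIs in TSF and 27679 in CM, while 14 TSF cells (10.1%) and 8 CM cells (27.6%) had fewer than 10000. Because each cell weighs the same in the mean, 1 UMI in the shallowest CM cell was worth 0.354 CP10k of the CM mean, and 0.0791 CP10k in TSF. The 2 libraries differed by less than 0.354 CP10k for 7 of the 9 enzymes, and by more for Idh2 and Mdh2. A gene with no UMI in any cell could still be detectable in up to 2.16% of TSF cells or 10.3% of CM cells (3 counts). These intervals and limits cover counting error only.

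The label of the cells was checked against markers. The keratins Krt8 and Krt18 were seen in 100% and 96.6% of CM cells and in 98.6% and 99.3% of TSF cells. Transcripts of the CD90.1 reporter were found in 6.90% of CM cells (0.846% to 22.8%) and 34.5% of TSF cells (26.7% to 43.1%), and Epcam in 27.6% and 68.3%. Summed over 7 carcinoma markers, levels were 29.3 CP10k in CM and 29.5 in TSF, mostly the 2 keratins, without which the sums were 0.711 and 2.64. Of the 7 carcinoma markers, 4 were at least 1.5-fold higher in TSF and 0 lower, beside 15.4% and 29.9% of all genes. The 8 leukocyte markers summed to 21.5 CP10k in CM and 5.24 in TSF, of which the antigen presentation gene Cd74 made up 21.5 and 4.23. Without Cd74 the sums were 0.00958 and 1.01, the latter mainly S100a9 (0.685, in 4 TSF cells) and S100a8 (0.300, in 2). Lyz2 and Nkg7 were at 0 in both libraries, and Ptprc, S100a8, S100a9 and Cd3e at 0 in CM. Endothelial markers summed to 0.0588 CP10k in CM and 0.163 in TSF, fibroblast markers to 0.0907 and 0.596, and alveolar epithelial markers to 0.363 and 0.0591, with Sftpc at 0 in both. The authors split the cancer cells into a pair of fine clusters, and 85 of 139 TSF cells (61.2%, 52.5% to 69.3%) and 6 of 29 CM cells (20.7%, 7.99% to 39.7%) fell in the one of lower depth. What part these markers, clusters and depths had in the enzyme levels was not tested.

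Promoters of the 4 enzymes with the largest ratios in either direction are shown because they are the nearest regulatory sequence of the genes the comparison turns on. Each is 300 bases of the RefSeq start site window on build GRCm38.p6, from 250 before to 50 after the start, read 5′ to 3′ on the strand of the gene. The RefSeq start used for Mdh2 lay 169 bases from the start of its principal GENCODE transcript. Most of that window, with its TGACGTCA, was downstream of the GENCODE start. For Idh2, Sdha, Fh1 and Ogdh the distance was 42, 40, 0 and 26 bases. Capitals mark matches on either strand to any of the motifs searched, which are named in the next paragraph. Mdh2 is at chr5:135778399-135778698 on the plus strand. On the minus strand are Idh2 at chr7:80115301-80115600, Sdha at chr13:74350191-74350490 and Fh1 at chr1:175625586-175625885. Ogdh, at chr11:6291409-6291708 on the plus strand, is added because it shared a motif with Mdh2.
Mdh2: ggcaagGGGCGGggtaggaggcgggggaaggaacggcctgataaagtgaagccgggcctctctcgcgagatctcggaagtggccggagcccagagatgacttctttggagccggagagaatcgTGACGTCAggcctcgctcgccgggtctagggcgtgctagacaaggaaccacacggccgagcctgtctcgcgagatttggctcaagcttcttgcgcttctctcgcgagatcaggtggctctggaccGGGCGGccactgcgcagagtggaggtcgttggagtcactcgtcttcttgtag
Idh2: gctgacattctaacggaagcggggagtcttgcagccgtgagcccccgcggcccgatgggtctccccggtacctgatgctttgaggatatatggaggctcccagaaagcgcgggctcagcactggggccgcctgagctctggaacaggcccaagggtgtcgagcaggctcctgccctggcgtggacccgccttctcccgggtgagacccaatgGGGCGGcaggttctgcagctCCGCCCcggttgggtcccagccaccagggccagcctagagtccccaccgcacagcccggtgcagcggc
Sdha: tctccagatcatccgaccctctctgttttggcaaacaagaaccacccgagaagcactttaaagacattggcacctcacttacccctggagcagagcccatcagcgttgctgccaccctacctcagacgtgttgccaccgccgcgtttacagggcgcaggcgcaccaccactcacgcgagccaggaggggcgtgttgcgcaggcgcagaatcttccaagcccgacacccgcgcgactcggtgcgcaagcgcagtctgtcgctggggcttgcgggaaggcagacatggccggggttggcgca
Fh1: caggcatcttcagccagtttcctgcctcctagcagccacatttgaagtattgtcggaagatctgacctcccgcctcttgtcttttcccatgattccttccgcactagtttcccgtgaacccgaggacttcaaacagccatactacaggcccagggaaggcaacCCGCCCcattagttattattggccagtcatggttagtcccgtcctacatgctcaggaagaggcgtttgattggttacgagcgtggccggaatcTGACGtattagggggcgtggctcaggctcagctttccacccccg
Ogdh: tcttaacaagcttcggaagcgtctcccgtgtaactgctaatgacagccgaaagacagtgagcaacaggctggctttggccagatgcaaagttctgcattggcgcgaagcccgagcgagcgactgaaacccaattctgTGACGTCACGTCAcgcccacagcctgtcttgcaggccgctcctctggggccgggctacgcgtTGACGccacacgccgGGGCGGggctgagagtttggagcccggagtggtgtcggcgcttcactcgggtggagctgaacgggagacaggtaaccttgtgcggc

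Of the 9 enzymes, 8 had a window in the table, and Idh3a did not. For each enzyme the window nearest the start of its principal GENCODE transcript was used. Values over all windows count every window, with no such choice made. The letters searched on both strands were GCATGC (core of the NRF1 motif), CCGGAAG (GABP), AAGGTCA (ERR), GGGCGG (SP1), ATGGCGG (YY1) and TGACG (one arm of the CREB motif), all known from promoters of mitochondrial genes. SP1 letters were in 6 of the 8 windows (Cs, Idh2, Ogdh, Sdhb, Fh1 and Mdh2) and in 35.7% of all 32851 windows. This CREB arm was in 4 (Ogdh, Suclg1, Fh1 and Mdh2) and in 20.8% of all. Its full palindrome TGACGTCA, which contains that arm and was looked for after the windows were seen, was in Ogdh and Mdh2 and in 1.79% of all. NRF1 and GABP letters were each in Sdhb alone, against 7.93% and 8.86% of all windows, and ERR (4.72% of all) and YY1 (4.05%) letters were in none of the 8. Whether any motif bears on direction was not tested, and the signs of Cs and Sdhb turned on centring. SP1 and CREB letters were in the windows of Mdh2, which was higher in TSF, and of Ogdh and Fh1, which were lower. Suclg1, also higher, had the CREB arm and no SP1 letters, and its RefSeq start lay 123 bases from the principal GENCODE start. Of the lower enzymes, Idh2 had only SP1 letters and Sdha none of the motifs. GC content was 68.3% for Idh2, 62.7% for both Sdha and Mdh2, 61.3% for Ogdh and 60% for Sdhb. It was 58.7% for Cs, 54.3% for Fh1 and 51% for Suclg1. Over all windows the median was 52.7% and the 75th percentile 61.7%.

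Entry of acetyl-CoA and the first oxidative steps were measured through Cs, Idh3a and Idh2. Citrate synthase, encoded by Cs (chr10:128337734-128362479, plus strand, 11 exons), joins acetyl-CoA to oxaloacetate. Its level was 0.695 CP10k in CM and 0.629 in TSF, a log2 ratio of -0.14, and it was seen in 22 of 29 CM cells (75.9%, 56.5% to 89.7%) and 100 of 139 TSF cells (71.9%, 63.7% to 79.2%). Cs was thus lower in TSF by less than the median gene, and its sign turned to 0.05 when ratios were centred on the median of all genes. Idh3a (chr9:54586334-54604661, plus strand, 11 exons) encodes the catalytic subunit of the NAD-dependent isocitrate dehydrogenase that drives the cycle forward. Its level was 0.892 CP10k in CM and 0.745 in TSF, a log2 ratio of -0.26. It was seen in 24 CM cells (82.8%, 64.2% to 94.2%) and 98 TSF cells (70.5%, 62.2% to 77.9%). In cells with a UMI its mean level was 1.08 CP10k in CM and 1.06 in TSF, so the difference in the mean lay in the share of cells, which differed by -12.3 percentage points (-24.8 to 6.39).

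Idh2 (chr7:80094846-80115392, minus strand, 11 exons) encodes the NADP-dependent isocitrate dehydrogenase of the matrix, which makes NADPH and can also run in reverse. Its level was 1.46 CP10k in CM and 0.912 in TSF, a log2 ratio of -0.68, the lowest of the 9 enzymes and at percentile 25.8 of all genes. It was seen in 24 CM cells (82.8%, 64.2% to 94.2%) and 110 TSF cells (79.1%, 71.4% to 85.6%). The shares were close, with a difference of -3.62 percentage points (-15.8 to 14.7), and the level per cell with a UMI was 1.76 CP10k in CM and 1.15 in TSF. Idh2 was below 0 under all 5 other scalings tried, from -0.62 to -0.36, but passed 1.5-fold only without a pseudocount, with a pseudocount of 0.1, and per cell with a UMI.

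The 2-oxoglutarate and succinyl-CoA steps were measured through Ogdh and Suclg1. Ogdh (chr11:6291633-6356642, plus strand, 23 exons) encodes the decarboxylating subunit of 2-oxoglutarate dehydrogenase. Its level was 0.458 CP10k in CM and 0.381 in TSF, a log2 ratio of -0.27, and 17 CM cells (58.6%, 38.9% to 76.5%) and 78 TSF cells (56.1%, 47.5% to 64.5%) had a UMI. Suclg1 (chr6:73248382-73276911, plus strand, 9 exons) encodes the alpha subunit shared by both forms of succinyl-CoA ligase, the step that makes GTP or ATP directly. Its level was 0.615 CP10k in CM and 0.650 in TSF, a log2 ratio of 0.08, with a UMI in 21 CM cells (72.4%, 52.8% to 87.3%) and 100 TSF cells (71.9%, 63.7% to 79.2%). The share difference of Suclg1 was the smallest of the 9, at -0.471 percentage points (-15.6 to 18.9).

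Succinate dehydrogenase, which is also complex II of the respiratory chain, was measured through its catalytic pair. Sdha (chr13:74322254-74350280, minus strand, 15 exons) encodes the subunit that binds FAD and oxidises succinate. Its level was 0.969 CP10k in CM and 0.636 in TSF, a log2 ratio of -0.61. It was seen in 25 CM cells (86.2%, 68.3% to 96.1%) and 101 TSF cells (72.7%, 64.5% to 79.9%), a difference of -13.5 percentage points (-25.0 to 4.52) and the largest of the 9. Sdha stayed below 0 under the 5 other scalings, from -0.54 to -0.27, and none of them kept it past 1.5-fold. Sdhb (chr4:140961203-140979193, plus strand, 8 exons) encodes the iron-sulfur subunit that hands the electrons on. Its level was 2.03 CP10k in CM and 1.96 in TSF, a log2 ratio of -0.05 whose sign turned on rescaling and, to 0.14, on centring, and it was seen in 26 CM cells (89.7%, 72.6% to 97.8%) and 126 TSF cells (90.6%, 84.5% to 94.9%). Sdhb was the only one of the 9 whose share was higher in TSF, by 0.992 percentage points (-8.04 to 17.5).

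The last steps, from fumarate to oxaloacetate, were measured through Fh1 and Mdh2. Fh1 (chr1:175600374-175625635, minus strand, 10 exons) encodes fumarase, a tumor suppressor in hereditary kidney cancer. Its level was 0.547 CP10k in CM and 0.411 in TSF, a log2 ratio of -0.41, and it was seen in 18 CM cells (62.1%, 42.3% to 79.3%) and 82 TSF cells (59.0%, 50.3% to 67.3%). Only Idh2 and Sdha had lower ratios among the 9, and Fh1 was below 0 under all 5 other scalings, from -0.34 to -0.13. Mdh2 (chr5:135778480-135790398, plus strand, 9 exons) encodes the matrix malate dehydrogenase, which also serves the malate-aspartate shuttle. Its level was 2.82 CP10k in CM and 3.73 in TSF, a log2 ratio of 0.40, the highest of the 9 and at percentile 79.0 of all genes. Nearly every cell had a UMI, 28 in CM (96.6%, 82.2% to 99.9%) and 133 in TSF (95.7%, 90.8% to 98.4%), and the level per cell with a UMI was 2.92 CP10k in CM and 3.89 in TSF. Mdh2 was above 0 under all 5 other scalings, from 0.31 to 0.60, and passed 1.5-fold only when centred.

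**Figure D1:**
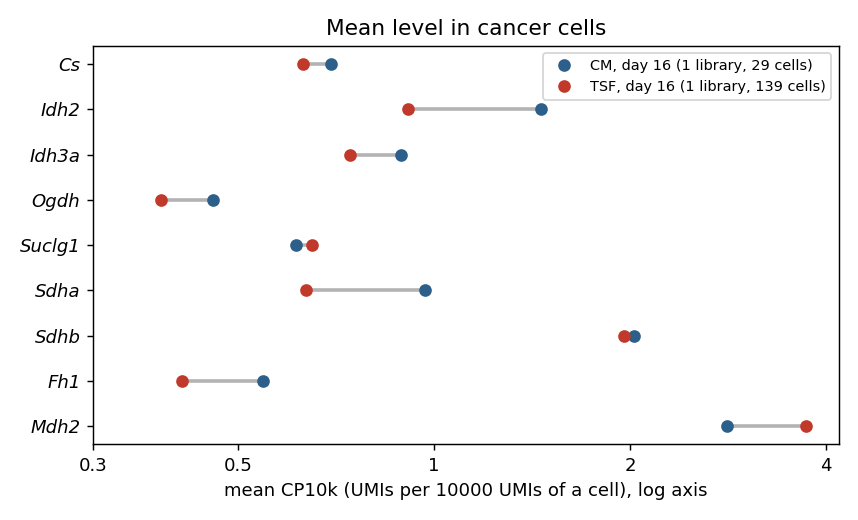
Mean CP10k (log axis) of each of the 9 enzymes in the cancer cells of the CM library (29 cells) and the TSF library (139 cells), 1 point per library with no error because there was 1 library per group. Idh2 (1.46 in CM, 0.912 in TSF) and Sdha (0.969, 0.636) have the TSF point far to the left of the CM point, and Mdh2 (2.82, 3.73) has it to the right.

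Across the 9, TSF levels were lower for 7 and higher for 2, Suclg1 and Mdh2, and relative to the median of all genes, 5 were below it and 4 (Cs, Suclg1, Sdhb and Mdh2) above it. Summed, the 9 enzymes came to 10.5 CP10k in CM and 10.1 in TSF. Shares of cells with a UMI were lower in TSF for 8 and higher for 1, and the interval of every one of the 9 share differences included 0. Among all 10121 genes that could be compared, 60.1% had a lower level in TSF and 48.8% had a higher share. With 29 CM cells these intervals reached from -25.0 percentage points for Sdha to 18.9 for Suclg1. Cells could not be thinned to equal depth, because no matrix of single cells was used.

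**Figure D2:**
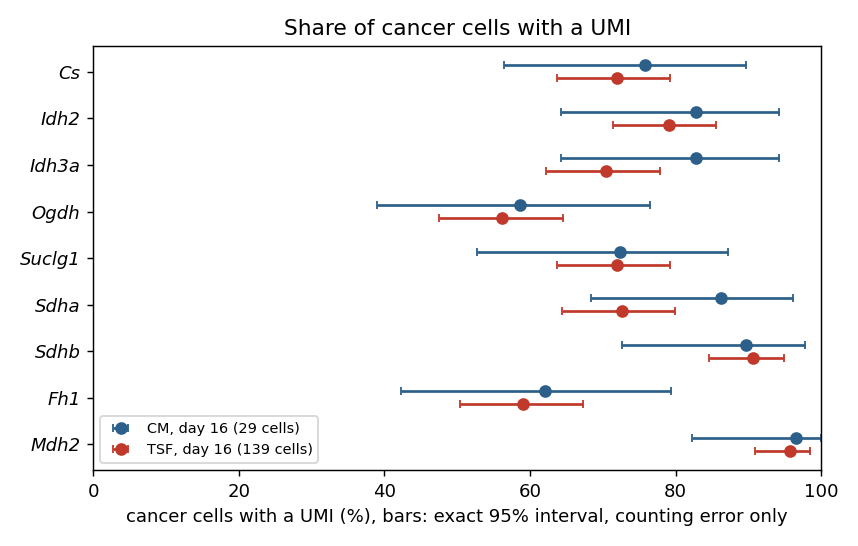
Percent of cancer cells with a UMI for each of the 9 enzymes in the CM library (29 cells) and the TSF library (139 cells), with bars for the exact 95% binomial interval, which covers counting error only. The bars of the 2 libraries overlap for all 9 enzymes, and the CM bars are the wider ones.

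Most of these enzymes work as complexes, so the other subunits were set beside the 9. Of the 8 added genes (Idh3b, Idh3g, Dlst, Dld, Suclg2, Sucla2, Sdhc and Sdhd), 0 were at least 1.5-fold lower and 2 at least 1.5-fold higher, with a median log2 ratio of 0.035. The shares of all genes were 29.9% lower and 15.4% higher. For the NAD-dependent isocitrate dehydrogenase, Idh3a, Idh3b and Idh3g spanned 0.15 on the log2 scale, all below 0 as deposited, and the sign of Idh3b (-0.11) turned on centring. For 2-oxoglutarate dehydrogenase, Ogdh was below 0 while Dlst (0.21) and Dld (0.18), its transferase and dihydrolipoamide dehydrogenase partners, were above, a span of 0.47.

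Subunits of succinyl-CoA ligase and succinate dehydrogenase were spread more widely. Suclg2, the GTP-forming beta subunit, was 0.223 CP10k in CM and 0.354 in TSF, a log2 ratio of 0.67. It was seen in 10 CM cells (34.5%, 17.9% to 54.3%) and 84 TSF cells (60.4%, 51.8% to 68.6%). These intervals overlapped, while that of the difference, 25.9 percentage points (5.97 to 42.4), left out 0. How many of all genes met that rule was not counted. Of the lists described below, it also held for Idh1, Sdhaf4, Pdk1, Slc25a1 and mt-Nd3, with higher shares in TSF. It held for Pdp1, Slc25a22 and mt-Nd6 with lower shares. Sucla2, the ATP-forming beta subunit, was 0.739 CP10k in CM and 0.535 in TSF, a log2 ratio of -0.47. The partners of Suclg1 thus lay on opposite sides of it, over a span of 1.13. Sdhd, a membrane anchor of succinate dehydrogenase, was 0.792 CP10k in CM and 1.28 in TSF, a log2 ratio of 0.69, opposite in direction to Sdha, over a span of 1.30 with Sdhb (-0.05) and the other anchor Sdhc (-0.16) between. Over these 17 genes, 11 were below 0 and 6 above, where 60.1% of all genes were below 0, and 2 were past 1.5-fold each way. The deposited KEGG gene set of the cycle, which holds all 9 enzymes, had 26 of 29 genes that could be compared. Of these, 4 were lower (15.4%) and 2 higher (7.69%), with a median of -0.15. Beside these and the 17 genes, 29.9% of all genes were lower and 15.4% higher.

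**Figure D3:**
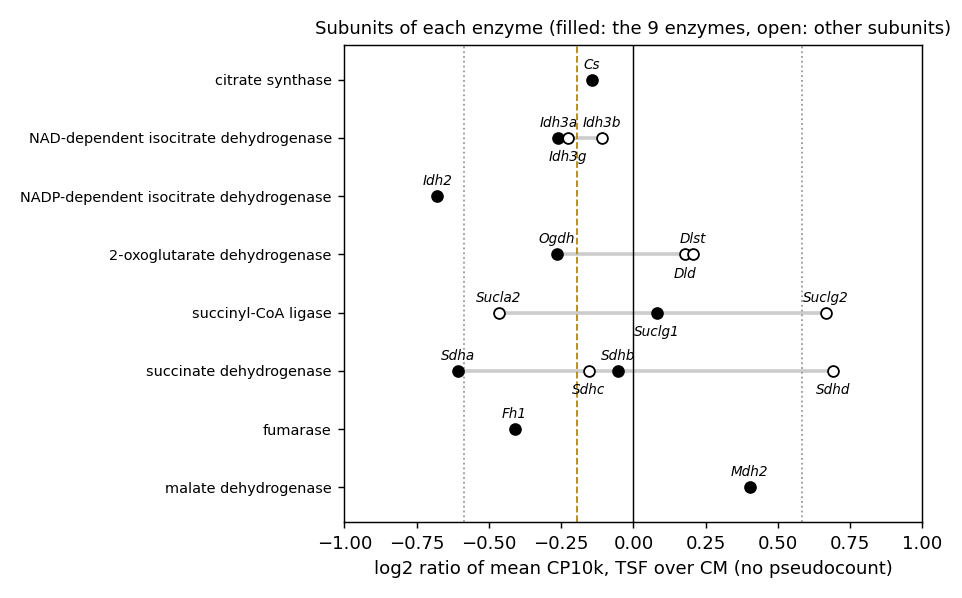
Log2 ratio of mean CP10k, TSF over CM, for the subunits of each TCA cycle enzyme, with filled points for the 9 enzymes, open points for other subunits, dotted lines at 1.5-fold and a dashed line at the median of all genes (-0.20). Subunits of NAD-dependent isocitrate dehydrogenase sit close together, while Sdha (-0.61) and Sdhd (0.69) lie at opposite ends of succinate dehydrogenase.

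The cytosolic counterparts of Idh2 and Mdh2 had ratios of mean CP10k nearer 0. Idh1 had a log2 ratio of -0.16 beside -0.68 for Idh2, and Mdh1 had 0.05 beside 0.40 for Mdh2. For Idh1 this joined opposite differences. It was seen in 41.4% of CM cells and 61.9% of TSF cells, a difference of 20.5 percentage points (0.780 to 38.1). Per cell with a UMI its log2 ratio was -0.74, lower than the -0.61 of Idh2. Aco1, which is also an iron regulatory protein, had the largest ratio of the 3 cytosolic genes at -0.41. Of the 4 assembly factors of succinate dehydrogenase, 0 were past 1.5-fold, and the largest was Sdhaf1 at -0.57. Of all genes, 29.9% were lower and 15.4% higher by that much.

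Ratios of the genes that feed, modify and drain the cycle spanned a wider range than those of the 9 enzymes, and several of these genes were seen in few cells. Of 13 genes of pyruvate entry, 12 could be compared, 5 were at least 1.5-fold lower and 3 at least 1.5-fold higher. Pdha1, the catalytic subunit of pyruvate dehydrogenase, was 0.857 CP10k in CM and 0.483 in TSF, and Dlat, its transferase, was 0.609 and 0.380. Their log2 ratios of -0.83 and -0.68 were as low as that of Idh2 or lower. The kinase Pdk3, which inhibits pyruvate dehydrogenase, had a log2 ratio of -1.01, and Pdp1, a phosphatase that relieves that inhibition, and Pdpr, the regulatory subunit of the phosphatase, had -2.26 and -1.64 with a UMI in 6 and 4 CM cells. Pdk1, another inhibitory kinase, was seen in 1 CM cell (3.45%, 0.0873% to 17.8%) and 37 TSF cells (26.6%, 19.5% to 34.8%), with intervals that lay apart. Pdk2 and Pdp2, also higher, were each seen in 2 CM cells (6.90%, 0.846% to 22.8%) and in 19 and 21 TSF cells, so these ratios rest on few CM cells. No UMI of Pdk4 was found in either library.

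Of the 4 genes of lipoylation, the modification that pyruvate and 2-oxoglutarate dehydrogenase need, 3 could be compared, with 0 lower and 2 higher. For this list and the next, the shares of all genes were 29.9% lower and 15.4% higher. Lias, lipoyl synthase, was 0.114 CP10k in CM and 0.228 in TSF, with a UMI in 8 and 63 cells, and Lipt2 was seen in 3 CM cells and 27 TSF cells. Of 11 genes that refill or withdraw from the cycle, 7 could be compared, with 3 lower (42.9%), 0 higher and a median log2 ratio of -0.38. Glud1, which turns glutamate into 2-oxoglutarate, was 1.93 CP10k in CM and 1.07 in TSF (-0.86). The transaminase Got1 (-0.83) and the malic enzyme Me2 (-1.17) were also lower. None of these 3 had share intervals apart.

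Among 7 mitochondrial carriers, Slc25a1, which exports citrate, was 0.161 CP10k in CM and 0.534 in TSF, a log2 ratio of 1.73. It was seen in 8 CM cells (27.6%, 12.7% to 47.2%) and 93 TSF cells (66.9%, 58.4% to 74.6%), with intervals that lay apart. Slc25a22, a glutamate carrier, had a log2 ratio of -0.90, and the other 5 carriers were within 1.5-fold. Over all 7 lists, 44 of 50 genes could be compared, and 9 were lower and 8 higher by at least 1.5-fold, with a median log2 ratio of -0.08. That is 20.5% lower and 18.2% higher, beside 29.9% and 15.4% of all genes. The 13 protein genes of the mitochondrial genome, all within 1.5-fold from -0.42 to 0.35, summed to 211 CP10k in CM and 220 in TSF.

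**Figure D4:**
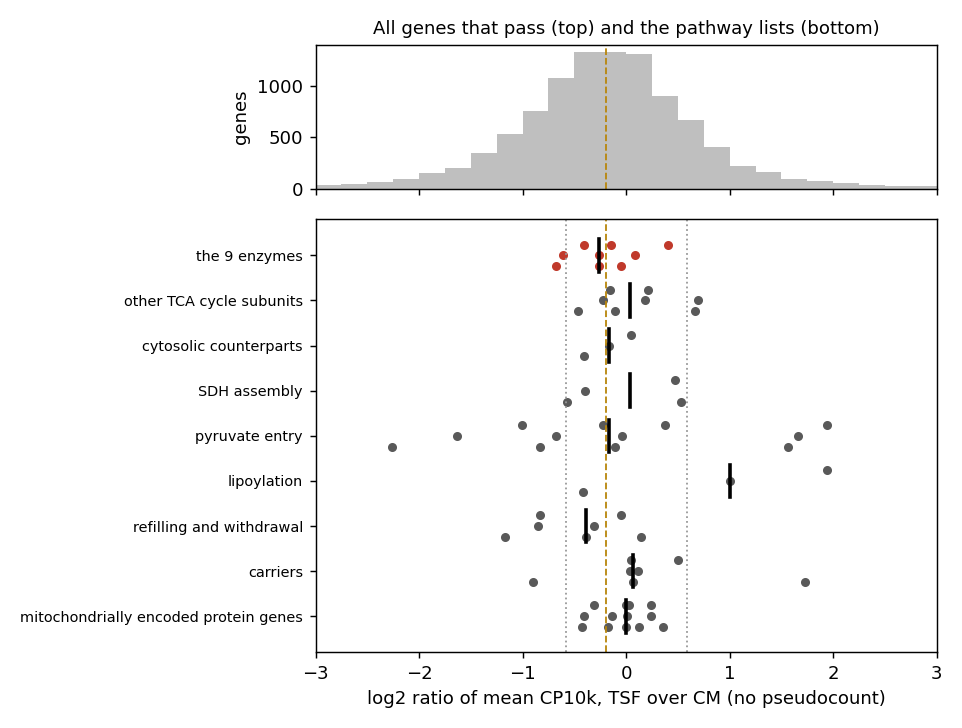
Top, number of the 10121 genes by log2 ratio of mean CP10k, TSF over CM, and bottom, the same ratio for each gene of the 9 enzymes and the related lists, with a bar at each median, dotted lines at 1.5-fold and a dashed line at the median of all genes. The 9 enzymes sit between -0.68 and 0.40, while pyruvate entry genes range from -2.26 to 1.94.

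Scaling set which enzymes passed 1.5-fold. Centring on the median of all genes left 0 of the 9 lower and 1, Mdh2, higher, with 22.1% of all genes lower and 21.4% higher. Recomputing CP10k without 103 ribosomal protein and mitochondrial genes, which took 26.1% of the CP10k in TSF and 20.7% in CM, left 0 lower and 0 higher. Of all genes, 25.5% were then lower and 18.7% higher.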

How the data were processed

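Cancer cells of 2 libraries (TSF and CM, day 16) were compared. The authors mapped 5′ 10x Genomics reads to mm10 (GRCm38.p6) plus the CD90.1 sequence with Cell Ranger, imported counts with Seurat 4.1.0, removed ambient RNA with an adapted SoupX and clustered cells with Monocle3-alpha. They removed multiplet clusters of other cell types and no doublets of cancer cells, and no doublet caller was run here. The deposited gene table gives mean CP10k (each cell's counts scaled to 10000 UMIs and averaged) and the count and percent of cancer cells with a UMI. The deposited cell table gives each cell's UMI counts and percent of mitochondrial UMIs. Of its libraries, 2 with no sample description and those of day 11 were not used. The deposited log2 fold changes, p-values, q-values and ranking scores are the authors' own comparison and were not used.

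Ratios of mean CP10k were taken without a pseudocount. Genes were compared if seen in at least 10% of cells of either library and above 0 in both. Shares have exact Clopper-Pearson intervals and share differences Newcombe intervals, at the 95% level. Python 3.11.15, pandas 2.3.3 and scipy 1.17.1 were used, and the calculation was checked on simulated data. Gene positions came from GENCODE on GRCm38. Cs and Idh2 overlap another gene on the same strand, and Sdha and Fh1 one on the opposite strand. Members and lists were chosen with earlier results of these data known. Named were all 9 members and, of the related lists, genes past 1.5-fold and the gene with the largest ratio. Other genes were named as partners of a member, or for an interval of the share difference that left out 0, after their values were seen. Of the lists as first fixed, 2 genes are not reported here, for a reason unrelated to their values, and were left out of the lists' counts. Protein sequences were not used here.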

Additional observations from a re-analysis of the deposited data

How the results depend on the processing

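No paired analysis was possible because each condition had 1 library and no result came from a test. The count of 2 enzymes at least 1.5-fold lower in TSF became 0 with a pseudocount of 1, 1 with a pseudocount of 0.1, 0 at a threshold of 2, 0 after rescaling, 0 after centring and 1 per cell with a UMI. Of all genes, 29.9% were lower, which became 1.97%, 17.3%, 15.7%, 25.5%, 22.1% and 19.4% in the same order. The count of 0 higher became 1 at a lower fold threshold and 1 after centring. The median log2 ratio of the 9 enzymes, -0.26, became -0.078 with a pseudocount of 1, -0.16 after rescaling, -0.064 after centring and -0.068 per cell with a UMI. For the related lists, the count of 9 lower became 0 with a pseudocount of 1, 15 at that lower threshold and 4 at 2. The shares of all genes there were 1.97%, 43.1% and 15.7%. Their count of 8 higher became 0 and 5 with a pseudocount of 1 and 0.1, 3 per cell with a UMI and 5 with a share minimum of 25%. In those settings 0.761%, 6.91%, 7.07% and 12.7% of all genes were higher. A pseudocount shrinks ratios of low genes by construction. Centring and rescaling each shift every log2 ratio by the same amount, and a higher threshold can only lower the counts. For the other changes the cause was not tested. No enzyme had share intervals apart at the 90%, 95% or 99% level. Among all genes seen in members' level range (0.420 to 3.27 CP10k, chosen after seeing the data), 25.3% of 3055 were lower and 8.02% higher. Precision is limited by the 29 CM cells.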
